A study of Mus musculus with 18 samples.

Results

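The 9 genes Prdm1, Bhlhe40, Id2, Tbx21, Bcl6, Rora, Runx3, Zeb2 and Ikzf3 encode transcriptional regulators of effector and memory T cells. They were chosen by name, with earlier results of these data known. Every array probe whose accession maps to one of the 9 mouse symbols was taken, which gave 14 of 41174 probes and 9 of 17178 named genes. Their levels were read in CD44low naive helper (CD4+) T cells sorted from the spleens of C57BL/6 mice, on 18 single-colour Agilent 4x44k arrays with 1 mouse each. The groups, of 3 mice each, were LAT KO, LAT Y136F and LAT WT after 4 weeks of tamoxifen and LAT KO, LAT Y136F and LAT WT after 1 week. By the sample titles the KO mice were ERCre+ LAT f/-, the Y136F mice ERCre+ LAT f/m and the WT mice ERCre- LAT f/-, so that every WT and KO mouse carried a null allele beside the floxed one. The series text describes all mice as Cre-positive and the mutants as Y136F/-, which is not what the titles say; if the titles hold, Cre activity and the mutations cannot be told apart. The promoter that drives Cre and the ages of the mice are not given in the sources used here. LAT is the membrane adaptor that carries T cell receptor signals, and the Y136F change removes the tyrosine that binds phospholipase C-gamma.

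An activated naive CD4+ T cell changes its set of transcription factors as it becomes an effector or memory cell, and the genes described here lie at the branch points of that change. Prdm1 (Blimp-1) and Bcl6 are repressors that act against each other. Bcl6 is the defining factor of follicular helper cells, and Prdm1 that of terminally differentiated effector cells and of plasma cells. Bhlhe40 is a basic helix-loop-helix repressor induced by receptor signalling and known for its role in cytokine production by helper cells, and Id2 binds E proteins and keeps them off DNA. Rora is a nuclear receptor of interleukin-17 producing and type 2 lymphocytes. Tbx21 (T-bet) drives the type 1 helper programme, in which Runx3 is its partner and Zeb2 a repressor of late effector cells. Ikzf3 (Aiolos) belongs to the Ikaros zinc finger family and is expressed in B cells and in several helper subsets.

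Promoter sequences are shown for genes that moved together in the 4-week Y136F cells. Of the 9 genes, 7 matched the RefSeq promoter table (assembly GRCm38.p6), namely all but Bhlhe40 and Ikzf3. The 250 bases before the annotated start are given 5′ to 3′ on the gene's strand. Capitals mark matches, on either strand, to the letters TGANTCA (AP-1), CACGTG (E-box), TGTGGT (RUNX), TGGGAA (Ikaros-type) or GGAAAA (NFAT-type), where N is any base.
Prdm1, chr10:44458749-44458998, minus strand: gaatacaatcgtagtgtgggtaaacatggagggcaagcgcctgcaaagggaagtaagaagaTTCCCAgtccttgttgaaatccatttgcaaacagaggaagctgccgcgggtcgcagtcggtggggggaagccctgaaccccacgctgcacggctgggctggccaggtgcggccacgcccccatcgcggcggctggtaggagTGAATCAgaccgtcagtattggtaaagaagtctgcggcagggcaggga
Id2, chr12:25096093-25096342, minus strand: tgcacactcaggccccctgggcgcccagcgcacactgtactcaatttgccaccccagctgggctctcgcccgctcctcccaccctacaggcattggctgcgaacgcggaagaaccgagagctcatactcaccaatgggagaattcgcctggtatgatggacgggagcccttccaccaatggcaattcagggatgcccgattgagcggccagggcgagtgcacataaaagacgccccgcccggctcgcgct
Bcl6, chr16:23988853-23989102, minus strand: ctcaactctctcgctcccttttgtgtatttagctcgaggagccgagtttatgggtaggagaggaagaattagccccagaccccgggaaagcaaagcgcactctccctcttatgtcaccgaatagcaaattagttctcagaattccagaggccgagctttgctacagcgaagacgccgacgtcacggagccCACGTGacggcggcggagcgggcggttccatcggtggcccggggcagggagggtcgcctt
Rora, chr9:68653536-68653785, plus strand: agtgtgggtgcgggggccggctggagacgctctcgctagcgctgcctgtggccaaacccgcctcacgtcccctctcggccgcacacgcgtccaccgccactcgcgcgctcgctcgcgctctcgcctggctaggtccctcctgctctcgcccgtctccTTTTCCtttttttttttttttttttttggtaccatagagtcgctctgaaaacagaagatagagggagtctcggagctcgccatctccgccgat
The Prdm1 window held an AP-1 match whose first base lay 48 bases before the start, and an Ikaros-type match at 189 bases. The Bcl6 window held an E-box, the letters that Bhlhe40 and related proteins are known to bind, at 60 bases before the start. The Rora window held an NFAT-type match at 93 bases, and the Id2 window held none of the 5 motifs. Among 32851 promoter windows of the same length, 6.75% held the AP-1 letters, 6.02% the E-box, 14% the RUNX, 21.6% the Ikaros-type and 20.4% the NFAT-type letters. The table's other windows for these genes add an alternative Bcl6 start with 2 NFAT-type matches, a Tbx21 window with 1 Ikaros-type match, a Runx3 window with 2 RUNX matches and 1 Ikaros-type match, and Zeb2 windows with 2 AP-1 matches or 1 NFAT-type match. These matches are descriptions of letters, and binding was not measured.

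Levels are given as log2 intensity minus the 75th percentile of the same array, so that 0 is the level of the array's 75th percentile spot. That percentile lay between 1123.7 and 1896.1 intensity units, and 84.2% to 97.9% of the spots of an array were well above background. Outlier spots numbered 187 to 952 per array and 7888 on the 1-week KO array of replicate 3. The Lat probe read 3.16, 2.62 and 2.34 in 4-week KO cells and 4.43, 3.86 and 3.93 in 4-week Y136F cells, against 3.29, 3.62 and 3.85 in 4-week WT cells. Its place relative to the deleted part is not given in the sources used here. By the labels every Y136F mouse was female and every 4-week KO and WT mouse was male, and each 1-week KO and WT group held 2 females and 1 male. Sex-linked genes went against the label on the KO arrays of 1 week, replicate 1, and of 4 weeks, replicate 2. The first is labelled female and the second male, and whether these arrays were exchanged between the times cannot be settled from the labels and files, so the time of both is in doubt too. Without both arrays, none of the 9 genes was called in KO against WT at either time, in KO against Y136F at 1 week, in KO between the times or for the change of the KO effect, as with them. The 1-week KO replicate 1 array was the highest of its group for 7 of the 9 genes, and 4-week KO replicate 1 was the highest of its group for 8 of 9.

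In 4-week Y136F cells, 5 of the 9 genes were higher than in 4-week WT cells and none was lower. Bhlhe40, Id2, Rora, Prdm1 and Bcl6 rose between 1.92-fold and 4.2-fold, while Tbx21, Zeb2, Runx3 and Ikzf3 did not pass the test. Over all 31553 genes and unnamed sequences tested in this comparison, 2.48% were called higher and 0.916% lower. The test was limma with Benjamini-Hochberg adjustment over all of them at a threshold of 0.05, and errors of differences are standard errors with 3 arrays a group unless a lost spot is named. The median difference of the 9 genes was 0.94 (log2), against -0.19 over everything tested. Because the 9 were chosen with earlier results of these data known, these shares and medians are a description and not a test of the set. The same 5 genes had every Y136F array above every WT array, which held for 9.27% of everything tested. With 3 arrays against 3, an exact two-sided permutation test of a single gene cannot go below p = 0.1, which each of these 5 reached.

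Bhlhe40 showed the widest separation of the 9. Its level was -0.36, -0.37 and 0.01 in 4-week Y136F cells, against -2.22, -2.38 and -2.33 in 4-week WT cells. The 4-week KO arrays read -2.14, -2.65 and -2.23, inside or just below and above the WT range. All 3 Y136F arrays stood far above the 15 others, the highest of which was -1.57 on a 1-week KO array. The difference from WT was 2.07 ± 0.23 on the log2 scale, or 4.2-fold, with a 95% interval of 1.58 to 2.56 and an adjusted p of 9.84e-05. At 1 week the KO arrays had -1.57, -2.69 and -2.13 and the Y136F arrays -2.36, -2.48 and -2.20, against -2.71, -2.39 and -2.52 in WT, and the groups overlapped.

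Id2, the E protein inhibitor, followed the same course. It read 3.87, 2.75 and 3.34 in 4-week Y136F cells, against 1.95, 1.01 and 1.38 in 4-week WT cells. The lowest Y136F array was above the highest WT array. The difference was 1.88 ± 0.31, or 3.67-fold, with an adjusted p of 0.00204. In 4-week KO cells the levels were 2.02, 1.16 and 1.68, with 1 array just above the WT range and the others inside it. Its second probe gave 2.28 ± 0.48 with an adjusted p of 0.0101 in the fit of every probe.

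Rora read 2.51, 2.23 and 2.32 in 4-week Y136F cells, against 1.17, 0.33 and 0.31 in 4-week WT cells. Y136F replicates lay within a narrow range, and WT replicate 1 stood above its group without reaching them. The Y136F level exceeded WT by 1.75 ± 0.29, or 3.35-fold, with an adjusted p of 0.00207. The KO arrays had 1.98, 0.91 and 1.53, between the Y136F and WT means. Rora was the one gene of the 9 whose 1-week Y136F arrays, at 1.20, 1.20 and 1.22, all lay above the 1-week WT arrays, at 0.99, 0.91 and 0.71. That 1-week difference of 0.34 ± 0.29 did not pass the test (adjusted p = 0.89).

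The opposing repressors Prdm1 and Bcl6 rose together. Prdm1 read -1.61, -1.21 and -1.18 in 4-week Y136F cells, against -2.38, -2.29 and -2.94 in 4-week WT cells, and -2.06, -2.71 and -2.23 in 4-week KO cells. The Y136F and WT arrays did not overlap, and the KO arrays lay within or near the WT range. Its difference from WT was 1.20 ± 0.25, or 2.30-fold, with an adjusted p of 0.0109. For Bcl6 the levels were 1.56, 1.93 and 2.11 in Y136F cells, against 1.18, 1.04 and 0.55 in WT cells, and 1.24, 0.68 and 1.11 in KO cells. Bcl6 rose by 0.94 ± 0.21, or 1.92-fold, with an adjusted p of 0.0183. Across the 18 arrays the levels of both genes had a Pearson correlation of 0.94, which describes arrays that share the group structure. Both calls depended on single arrays: without Y136F replicate 2 the adjusted p was 0.0556 for Prdm1 and 0.0719 for Bcl6, without Y136F replicate 3 it was 0.0628 for Prdm1 and 0.113 for Bcl6, and without WT replicate 3 it was 0.0762 for Prdm1 and 0.124 for Bcl6. Bhlhe40, Id2 and Rora kept their calls when any single array was left out.

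By their brightest probes, the type 1 helper factors Tbx21, Zeb2 and Runx3 and the Ikaros-family gene Ikzf3 did not pass the test in this comparison, and Runx3 did by its second probe, as given further on. Tbx21 read 4.35, 3.69 and 3.82 in 4-week Y136F cells, against 3.31, 4.55 and 3.97 in 4-week WT cells. The Y136F range lay inside the WT range, and the difference was 0.02 with a 95% interval of -0.74 to 0.78 (adjusted p = 0.983). Zeb2 had -0.29, -0.68 and -0.87 in Y136F cells, against -1.66, -0.80 and -1.18 in WT cells. Of the Y136F arrays, 2 lay above every WT array and 1 did not, and the difference of 0.60 ± 0.30 had an adjusted p of 0.341. Runx3, by its brightest probe, had 1.51, 1.34 and 1.5 in Y136F cells, against 1.15 and 1.5 on the 2 WT arrays with a usable spot. That difference was 0.12 ± 0.19 (adjusted p = 0.746). Ikzf3 read 1.5, 1.66 and 1.69 in Y136F cells, against 1.61, 1.82 and 1.72 in WT cells, and its difference of -0.10 had an interval of -0.36 to 0.15.

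**Figure D1:**
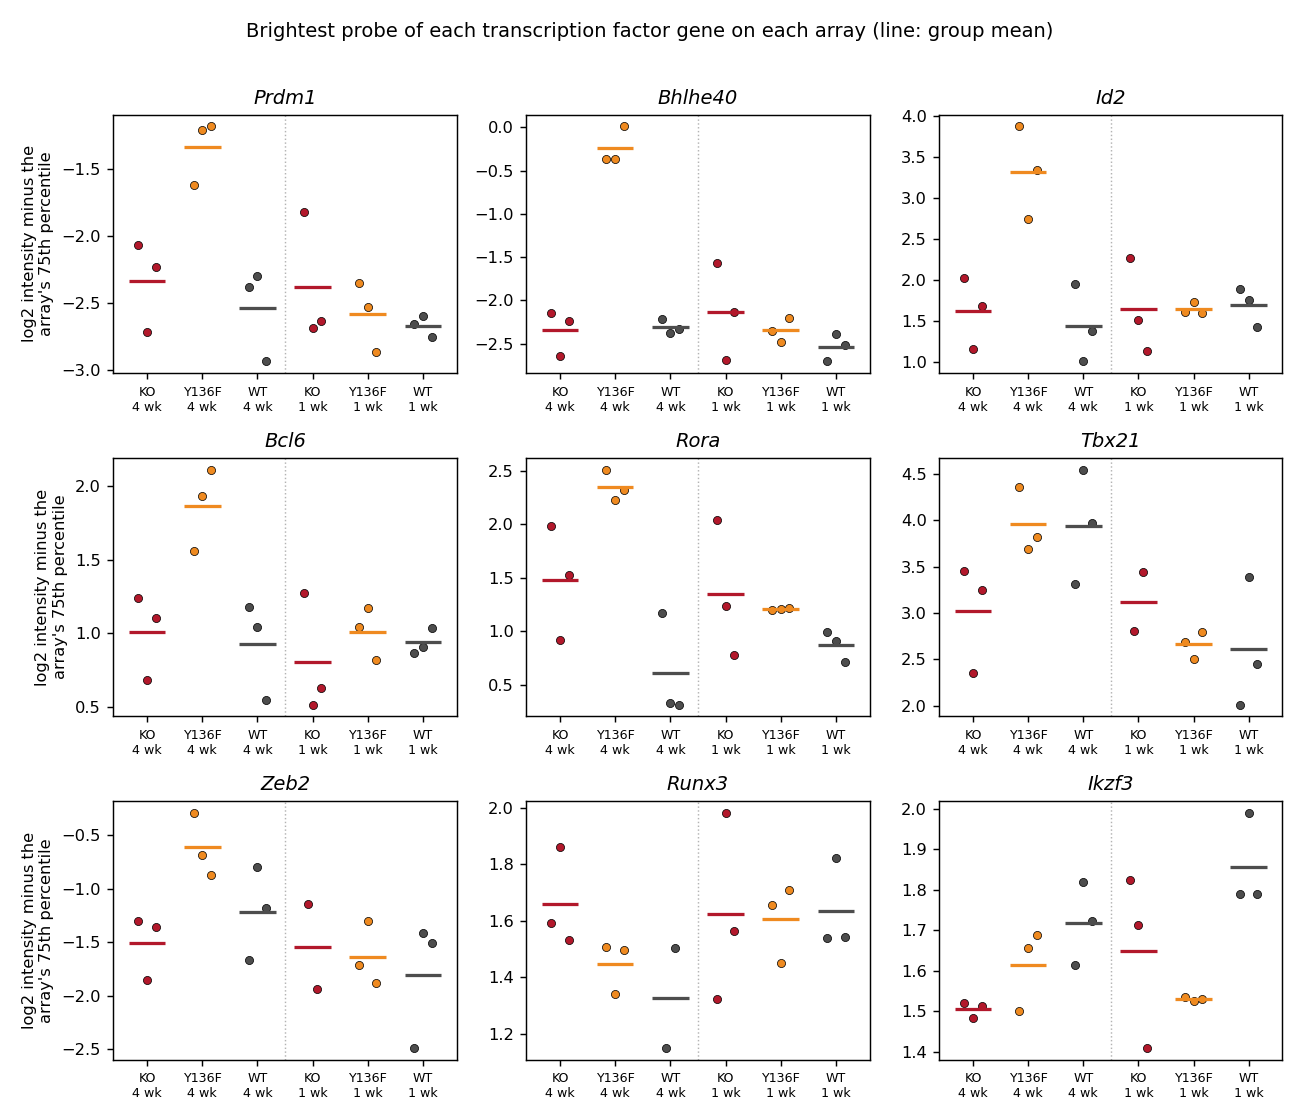
Level of the brightest probe of each of the 9 genes on each array, as log2 intensity minus the array's 75th percentile (y axis, own range in each panel), by genotype and weeks of tamoxifen; points are arrays, lines are group means, and spots marked as outliers are not drawn. Bhlhe40, Id2, Rora, Prdm1 and Bcl6 have all 3 points of 4-week Y136F above all 3 points of 4-week WT.

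Slide and sex bear on this comparison. Each 4-week Y136F array shared a slide with 1 WT array of 4 weeks, which gives 3 differences within slides. Bhlhe40 was higher in Y136F by 1.85 to 2.34 within slides, Id2 by 1.74 to 1.97, Rora by 1.34 to 2.0, Prdm1 by 0.77 to 1.76 and Bcl6 by 0.37 to 1.56. Tbx21 ran from -0.85 to 1.04 within slides, so its sign differed between them. At 4 weeks the genotypes and the labelled sexes coincide and cannot be told apart there. With labelled sex as a term, which rests on the 1-week mice, Bhlhe40 stayed higher by 2.08 ± 0.35 (adjusted p = 0.0184). In that fit the calls of Id2 (1.30, adjusted p = 0.268), Rora (1.20, 0.279), Prdm1 (0.95, 0.416) and Bcl6 (0.88, 0.368) were lost. It called 85 genes and unnamed sequences in all instead of 1070. That term counted 1-week KO replicate 1 as female, although its sex-linked genes went against the label. How far these values rest on that array was not tested.

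Between the mutants at 4 weeks, 4 of the 9 genes, Bhlhe40, Id2, Prdm1 and Bcl6, were lower in KO than in Y136F cells, and none was called higher. Over everything tested 2.32% was called lower and 1.04% higher. Bhlhe40 differed by -2.10 ± 0.23 (adjusted p = 7.87e-05), Id2 by -1.70 ± 0.31 (0.00374), Prdm1 by -1.0 ± 0.25 (0.0353) and Bcl6 by -0.86 ± 0.21 (0.0331). Rora at -0.88 ± 0.29 (adjusted p = 0.135), Zeb2 at -0.89 ± 0.30 (0.159) and Tbx21 at -0.94 ± 0.36 (0.233) did not pass. All 7 of these genes had every KO array below every Y136F array, against 9.7% of everything tested. By its brightest probe Runx3 ran the other way, with KO levels of 1.59, 1.86 and 1.53 above all Y136F levels, as did 12.7% of everything tested, and a difference of 0.21 ± 0.17 that did not pass (adjusted p = 0.789). The second Runx3 probe had the opposite sign, at -0.37 ± 0.24 (adjusted p = 0.643 in the fit of every probe), so no direction is given for Runx3 here. The groups also differ in labelled sex here. With labelled sex as a term, which again counted 1-week KO replicate 1 as female, only Bhlhe40 was called of the 9 (-2.12 ± 0.35, adjusted p = 0.0119). Without both KO arrays of doubtful sex, Bhlhe40 and Id2 were called, and Prdm1 (-0.81, adjusted p = 0.09) and Bcl6 (-0.69, 0.0818) were not. Leaving out 4-week KO replicate 2 or 3 or Y136F replicate 2 or 3 likewise ended the calls of Prdm1, with adjusted p of 0.0752 to 0.25, and of Bcl6, with 0.0683 to 0.238, and leaving out Y136F replicate 1 ended that of Prdm1 (0.0505). Quantile normalization (0.116), the series matrix (0.12) and slide as a fixed term (-0.91, 0.137) also ended the call of Prdm1, and slide as a fixed term (-0.79, 0.128) and a fit without the intensity trend (0.0683) that of Bcl6. Rora came under the threshold without 1-week KO replicate 1 (0.0475). Within the 2 slides that held both groups, Bhlhe40 differed by -2.25 and -1.78, Id2 by -1.66 and -1.85, Prdm1 by -1.05 and -0.45 and Bcl6 by -1.01 and -0.31.

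The contrast of 4 weeks with 1 week in Y136F mice, which were all labelled female, showed the widest movement. Of the 9 genes 6 rose: Bhlhe40, Id2, Tbx21, Prdm1, Rora and Bcl6. In this contrast 4.21% of everything tested was called higher and 3.44% lower. Bhlhe40 rose by 2.11 ± 0.23 (4.31-fold, adjusted p = 5.34e-05) and Id2 by 1.67 ± 0.31 (3.19-fold, 0.00269). Prdm1 rose by 1.24 ± 0.25 (0.00547), Rora by 1.15 ± 0.29 (0.0214) and Bcl6 by 0.86 ± 0.21 (0.0206). Tbx21 read 4.35, 3.69 and 3.82 at 4 weeks, against 2.69, 2.5 and 2.79 at 1 week, with no overlap and a difference of 1.30 ± 0.36 (2.45-fold, adjusted p = 0.0361). Zeb2 read -0.29, -0.68 and -0.87 at 4 weeks, against -1.72, -1.30 and -1.89 at 1 week, and its 1.02 ± 0.30 just missed the threshold (0.0509). These 7 genes had every 4-week array above every 1-week array, as did 21.7% of everything tested. Ikzf3 (0.08 ± 0.12) and, by its brightest probe, Runx3 (-0.16 ± 0.17) did not pass, and the second Runx3 probe had the opposite sign (0.64 ± 0.24, adjusted p = 0.114).

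The calls in Y136F mice between the times differ in how much they depend on single arrays and on slides. Bhlhe40, Id2 and Prdm1 kept theirs when any array was left out, though Prdm1 lost it by the deposited series matrix (0.0672). Leaving out any of the 6 Y136F arrays ended the call of Tbx21, with adjusted p of 0.064 to 0.153, and that of Rora, with 0.0508 to 0.0887. Bcl6 lost its call without 1-week replicate 1 or 3 or 4-week replicate 2 or 3 (0.0653 to 0.095). Tbx21 also lost its call with the replicate number as a block (0.0517) and without the intensity trend (0.0678). Zeb2, just above the threshold, passed in 15 of 35 recomputations, with adjusted p down to 0.00476, among them quantile normalization (0.0453), normexp (0.0438), labelled sex as a term, array weights and a fit of the compared arrays alone (0.00491). Slide 2 alone held both times, and with slide as a fixed term Bhlhe40 (1.97, adjusted p = 0.00348) and Id2 (1.20, 0.0287) were called and the other 4 were not. On slide 2 itself the difference was 2.12 for Bhlhe40, 1.02 for Id2, 1.32 for Prdm1, 1.19 for Tbx21, 1.02 for Rora and 0.76 for Bcl6.

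**Figure D2:**
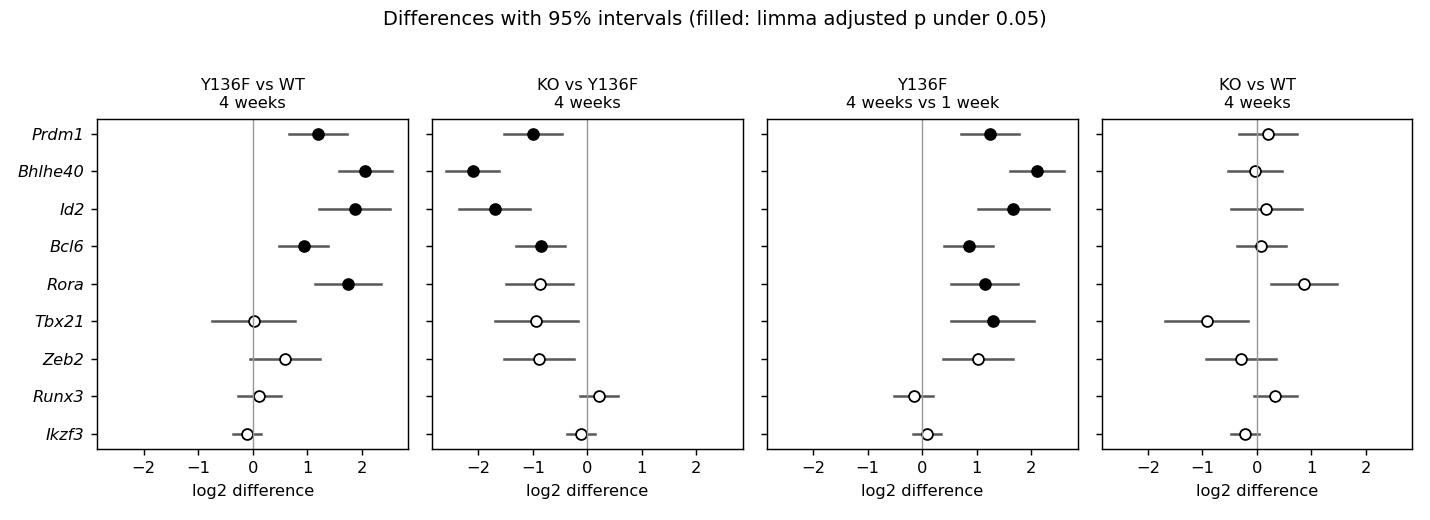
Log2 differences of the 9 genes with 95% intervals from limma (x axis) in 4 comparisons, each as the first group minus the second; filled points have an adjusted p under 0.05. Y136F against WT at 4 weeks has 5 filled points, KO against Y136F 4, the 2 times in Y136F 6, and KO against WT none.

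In KO cells none of the 9 genes was called against WT at either time, where limma called 0.0982% of everything tested at 4 weeks and 0.019% at 1 week, with 3459 and 905 features at an unadjusted p under 0.05. At 4 weeks Rora stood at 0.87 ± 0.29 above WT (adjusted p = 0.339) and Tbx21 at -0.92 ± 0.36 (0.391), neither past the threshold. Tbx21 read 3.45, 2.36 and 3.24 in 4-week KO cells, against 3.31, 4.55 and 3.97 in WT cells, and overlapped. Ikzf3 read 1.52, 1.48 and 1.51 in KO cells, wholly below the 1.61, 1.82 and 1.72 of WT cells, a pattern held by 14.6% of everything tested. Its difference of -0.21 ± 0.12 did not pass (adjusted p = 0.507). Runx3 lay wholly above the 2 usable WT arrays, as did 9.2% of everything tested, at 0.33 ± 0.19 (0.503). With array weights, however, Rora (1.23, adjusted p = 0.0012), Tbx21 (-1.05, 0.0133) and Ikzf3 (-0.26, 0.0459) passed in KO against WT at 4 weeks. The 95% intervals bound what these arrays could have missed: for Bhlhe40 -0.52 to 0.46, for Id2 -0.48 to 0.82, for Prdm1 -0.34 to 0.74 and for Bcl6 -0.37 to 0.54.

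At 1 week Y136F and WT cells also had none of the 9 genes called, against 0.0158% of everything tested and 1908 features at an unadjusted p under 0.05. Ikzf3 read 1.53 on all 3 Y136F arrays, below 1.79, 1.99 and 1.79 in WT cells, and differed by -0.33 ± 0.12 (adjusted p = 0.656). Wholly lower arrays were seen for 6.33% of everything tested, and wholly higher ones, as for Rora, for 4.65%. KO and Y136F cells at 1 week showed no call over everything tested (0%, with 1802 at an unadjusted p under 0.05). Tbx21 on the 2 usable KO arrays, at 2.80 and 3.44, lay just above the Y136F range of 2.5 to 2.79, as 4.48% of everything tested did.

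Between the times none of the 9 genes was called in KO or in WT mice, where limma called 0% of everything tested, with 185 and 6107 features at an unadjusted p under 0.05. Tbx21 in WT cells read 3.31, 4.55 and 3.97 at 4 weeks, against 2.01, 3.39 and 2.45 at 1 week. The largest difference of the 9 between the times in WT was this one, 1.32 ± 0.36, with overlapping arrays and an adjusted p of 0.132. It was as large as the Tbx21 difference in Y136F mice, and the change of the Y136F effect on Tbx21 between the times was -0.03 with an interval of -1.10 to 1.04. With array weights in limma, the WT difference of Tbx21 passed (1.68, adjusted p = 0.01015). In WT mice Bhlhe40 was wholly higher at 4 weeks (0.23 ± 0.23, adjusted p = 0.521), as was 9.12% of everything tested, and Runx3 wholly lower on its usable arrays (-0.31 ± 0.19, 0.323), as was 10.6%. Labelled sex also differs between the times in KO and WT mice.

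By the test given above, 1 gene was called for the change itself. For Bhlhe40 the Y136F effect was larger at 4 weeks than at 1 week by 1.88 ± 0.33 (adjusted p = 0.0127), where 0.393% of everything tested was called in that direction and 0.127% in the other. With labelled sex as a term this call was lost (1.89, adjusted p = 0.0603). Id2 at 1.92 ± 0.44 (0.0604), Rora at 1.41 ± 0.41 (0.154), Prdm1 at 1.11 ± 0.36 (0.234) and Bcl6 at 0.87 ± 0.30 (0.294) were not called. This change passed for Id2 in 13 of 34 recomputations and for Rora in 4 of 34. The KO minus Y136F difference of Bhlhe40 changed by -2.32 ± 0.33 (0.00234), in the direction of 1% of everything tested, with 0.352% in the other. Id2 came next at -1.69 ± 0.44 (0.0682), and passed in 5 of 34 recomputations. No change of the KO effect was called for any of the 9 genes or over everything tested (0%, with 1614 at an unadjusted p under 0.05).

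By the brightest probe of each gene, the order of the group means differed among the genes. The mean of Prdm1, Bhlhe40, Id2, Bcl6 and Rora was highest in 4-week Y136F cells, without overlap with the next group. Tbx21 and Zeb2 also had their highest mean there, but overlapped with 4-week WT, the next in order. The other Zeb2 probes differed from this. The second had its highest mean in 4-week WT cells (-3.45, with -3.77 in 4-week Y136F cells). The third had it in 4-week Y136F cells (-4.68), without overlap with 4-week WT cells (-6.12). For Runx3 the 4-week KO mean was highest and the 4-week WT mean lowest, with every neighbour in the order overlapping. By the second Runx3 probe the 4-week Y136F mean was highest, at 0.69, and the 4-week WT mean lowest, at -0.25. Ikzf3 was highest in 1-week WT cells and lowest in 4-week KO cells, and only the lowest group was clear of its neighbour. The spread of means from the lowest to the highest group was 0.33 for the brightest Runx3 probe, from 1.33 to 1.66, and 0.35 for Ikzf3, from 1.51 to 1.86.

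Probes of 1 gene did not always tell the same story. The 2 Rora probes correlated at 0.992 over the arrays and the 2 Id2 probes at 0.908. For Rora the second probe differed by 1.75 ± 0.27 between 4-week Y136F and WT cells (adjusted p = 0.00127). The 2 Runx3 probes did not track each other (r = -0.0065). By the second, Runx3 read 0.44, 0.61 and 1.01 in 4-week Y136F cells, against -0.57, -0.08 and -0.12 in WT cells, with no overlap and a difference of 0.94 ± 0.24 that passed the test (0.0397). The brightest probe of Runx3 did not show this, and with the mean of both probes as the gene's level Runx3 was called (0.77, adjusted p = 0.0208), so the size and the call of the Runx3 difference depend on the probe. In the fit with every probe as its own row 2.57% of all probes were called higher and 0.925% lower in this comparison.

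The 3 Zeb2 probes gave correlations from 0.399 to 0.898. The third was well above background on 12 of 18 arrays only, so its level is a bound on the others, among them 2 of the 3 arrays of 1-week Y136F. On 4-week Y136F arrays it read -4.18, -4.80 and -5.04, against -6.13, -5.93 and -6.30 on 4-week WT arrays, a difference of 1.44 ± 0.80 that did not pass (adjusted p = 0.371). Zeb2's middle probe had a difference of -0.32 ± 0.38 in the same comparison, opposite in sign to the others. All other probes of the 9 genes were well above background on all 18 arrays. Outlier spots were left out for Tbx21 on 1-week KO replicate 2, for 2 Zeb2 probes on 1-week KO replicate 3 and for the brightest Runx3 probe on 4-week WT replicate 2.

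**Figure D3:**
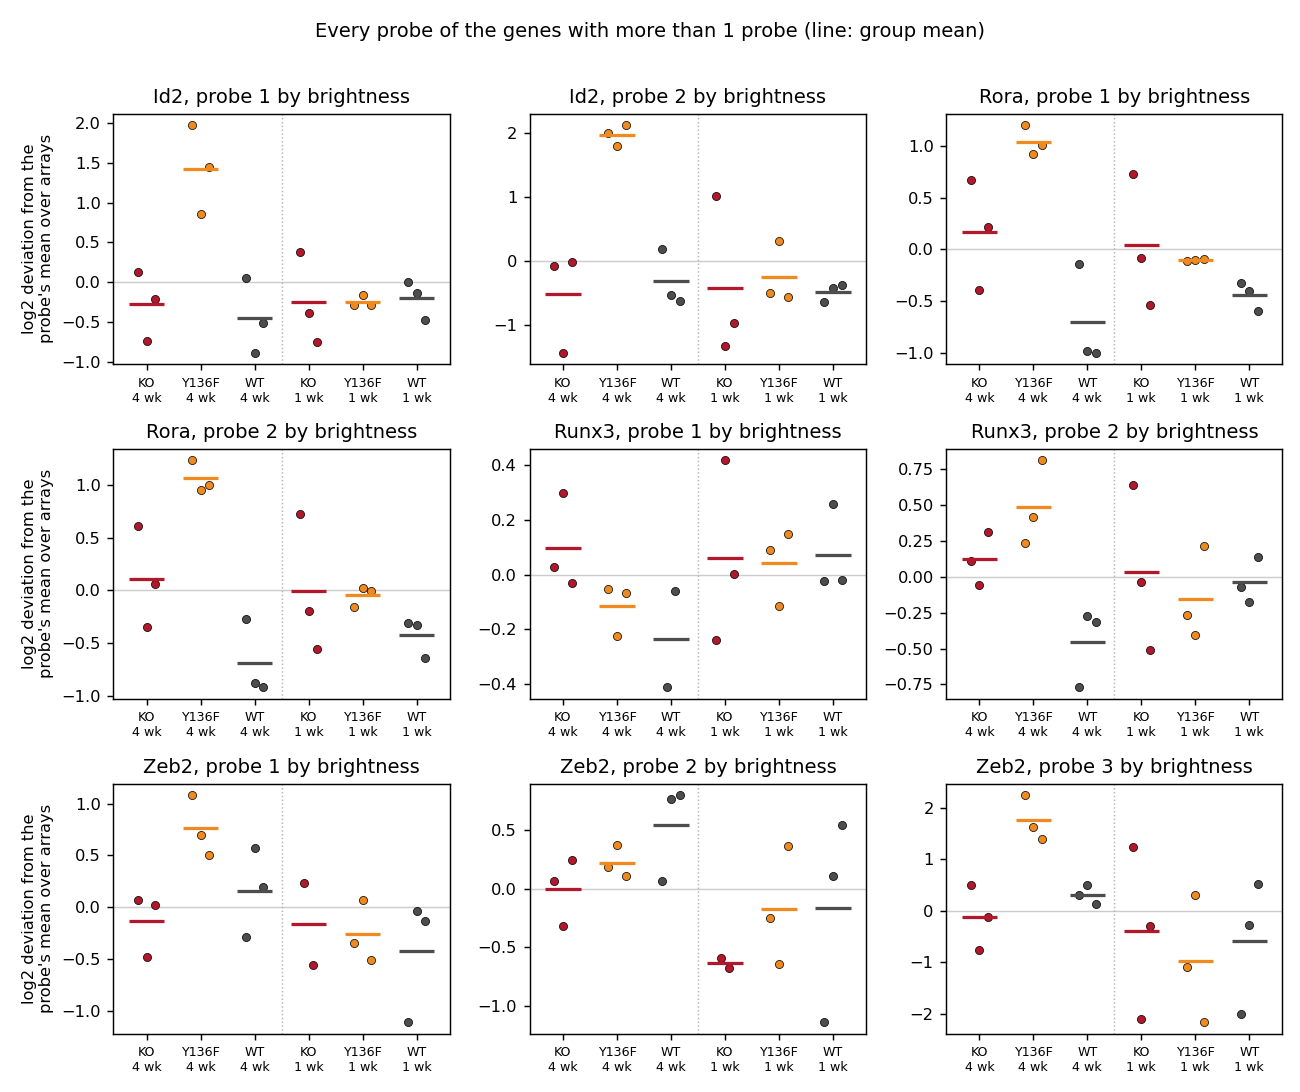
Every probe of Id2, Rora, Runx3 and Zeb2 on each array, as the log2 deviation from that probe's own mean over the arrays (y axis), by genotype and weeks of tamoxifen; points are arrays, lines are group means. Probes of Id2 and of Rora move together. Of the 2 Runx3 probes only the second lies wholly higher in 4-week Y136F than in 4-week WT. The third Zeb2 probe also lies wholly higher there.

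Genes known to depend on these factors moved unevenly in 4-week Y136F against WT cells. Of 18 genes known to be activated by Tbx21, Runx3 or Zeb2, 5 rose and 1 fell, with a median of 1.27, although none of the 3 factors was called by its brightest probe. Gzma (6.64 ± 0.61, adjusted p = 1.04e-05) and Gzmb (3.81 ± 0.54, 0.000699), which encode granzymes, and Fasl (1.25 ± 0.19, 0.00116), a death ligand, had the smallest p among them. Of 14 follicular helper genes known to follow Bcl6, 3 rose and 2 fell: Pdcd1, the PD-1 receptor, was higher by 2.0 ± 0.40 (0.00671), Tnfsf8 was higher by 1.57 ± 0.23 (0.000851), and the cytokine receptor chain Il6st was lower by 1.17 (difference -1.17 ± 0.20, 0.00301). Of 12 genes known to be repressed by Prdm1 or Zeb2, none rose and 2 fell, among them the chemokine receptor gene Ccr7 (-1.36 ± 0.16, 0.000111). Of 12 genes known to follow Rora or Bhlhe40 in helper cells, 2 rose and none fell, the interleukin-1 receptor gene Il1r1 (2.18 ± 0.37, 0.00237) and the growth factor gene Areg (2.07 ± 0.38, 0.00459). None of 21 antagonists and partners of the 9 factors was called. The one with the smallest p was Foxo1, a factor of the naive state (-0.49 ± 0.14, adjusted p = 0.0691).

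Other transcription factors of effector and memory T cells gave 7 rises and 1 fall among 28 in that comparison, with a median of 0.28. The fall was that of Irf4, a factor induced by receptor signalling (-1.05 ± 0.23, adjusted p = 0.0156). Gata3, the type 2 helper factor, rose by 1.59 ± 0.20 (adjusted p = 0.000203), Nfil3 by 1.99 ± 0.27 (0.000436) and Eomes by 2.62 ± 0.38 (0.000838). In 4-week KO against WT cells, where none of the 9 genes was called, 3 of these 28 fell and none rose. Nr4a1 differed by -1.70 ± 0.15 (8.86e-05) and Egr2 by -2.33 ± 0.27 (0.00103), both early genes of receptor signalling. The third was Irf4 at -2.12 ± 0.23 (0.000847). Irf4 is named here after its values were seen. At 1 week the same 3 genes were lower in KO than in WT cells, by -2.02 ± 0.15 for Nr4a1, -2.44 ± 0.27 for Egr2 and -2.02 ± 0.23 for Irf4.

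Markers of other cells and states moved with the 4-week Y136F group, and their part in the results above was not tested. In bulk samples, more cells of a type and more RNA per cell cannot be told apart. Of 14 memory or effector T cell markers 9 rose against WT and none fell, led by Lgals3 (2.54 ± 0.23), and the summed level, in units of each array's 75th percentile, was 179.44 to 208.26 in Y136F cells, against 113.05 to 161.66 in WT cells. Cd44, the marker of the sort, differed by 0.52 ± 0.26 (adjusted p = 0.33). Of 12 naive T cell markers 5 fell and none rose, with sums of 107.18 to 120.48 in Y136F cells, against 155.91 to 172.58 in WT cells. Proliferation genes rose for 14 of 20, with sums of 59.82 to 69.37 in Y136F cells, against 27.88 to 35.10 in WT cells. Plasma cell markers, which share Xbp1 with the factors above, rose for 3 of 6, with sums of 6.46 to 8.57 in Y136F cells, against 2.69 to 2.80 in WT cells. Such sums weigh bright genes most. The brightest plasma marker was Xbp1, at a median intensity of 2843 against 89.78 to 466.2 for the others. Of 7 basophil or mast cell markers 2 rose, with sums of 3.47 to 4.99 in Y136F cells, against 1.25 to 1.52 in WT cells. These were Hdc, histidine decarboxylase (3.23 ± 0.22), and Cpa3 (3.98 ± 0.82, adjusted p = 0.00938). Of these markers Hdc, Fcer1a and Mcpt8 were well above background on all 18 arrays and Cd200r3 on 17. Cpa3, Ms4a2 and Gata2 were so on 11, 12 and 10 of the 18 arrays. Of 8 NK cell markers 1 rose, Eomes, which is also among the factors above. The NK sums were 22.02 to 26.41 in Y136F cells, against 13.26 to 15.01 in WT cells. The brightest NK markers were Nkg7, at a median intensity of 8275, and Klra8, at 5779. None of 12 B cell markers was called (sums of 8.29 to 13.12 in Y136F cells, against 7.64 to 9.99 in WT cells). Nor was any of 10 myeloid markers (8.12 to 14.18 in Y136F cells, against 7.94 to 8.74 in WT cells). These 10 myeloid markers were each well above background on all 18 arrays, whereas the myeloid gene Csf3r, left out by the filter, was so on 0. Of 7 regulatory T cell markers 1 fell, Gpr83 (-1.24 ± 0.22, adjusted p = 0.00284), with sums of 29.26 to 34.31 in Y136F cells, against 28.40 to 40.55 in WT cells. None of 3 CD8 T cell markers was called, with sums of 0.680 to 0.802 in Y136F cells, against 0.531 to 0.623 in WT cells. The CD4 T cell markers, among them Cd3e (0.21 ± 0.16), had 2 of 10 called, Cd6 (0.76 ± 0.18) and Cd5 (0.65 ± 0.16).

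**Figure D4:**
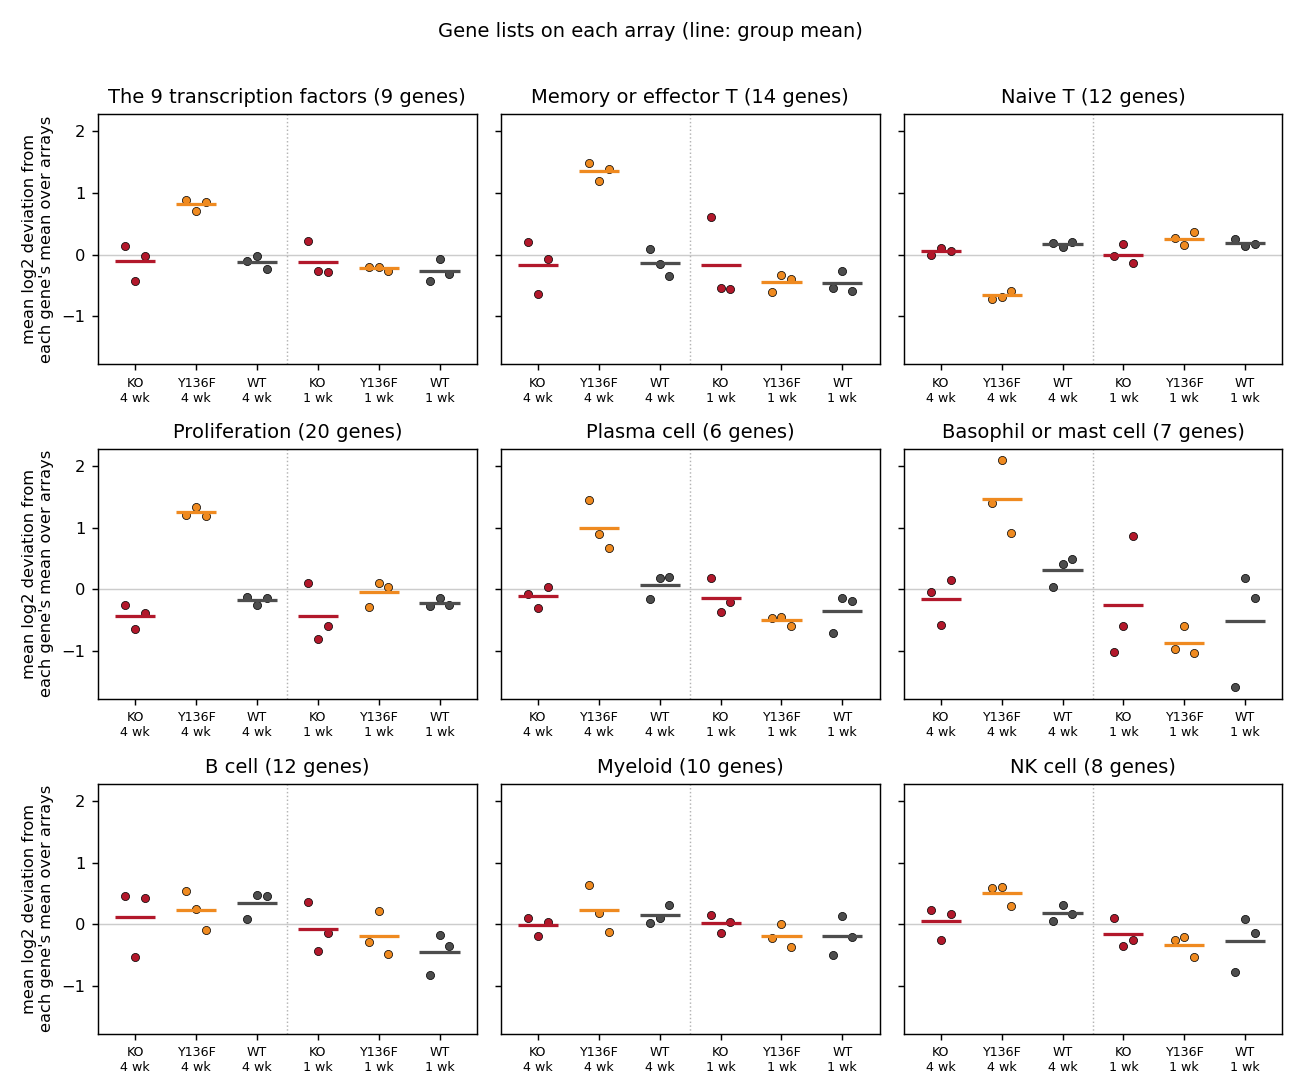
Mean log2 deviation of each gene list from its genes' means over the arrays (y axis), by genotype and weeks of tamoxifen; points are arrays and lines are group means. In 4-week Y136F the 9 transcription factors lie between 0.70 and 0.89, with memory or effector, proliferation, plasma cell and basophil or mast cell lists also high and the naive list low.

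Among all named genes, those whose levels tracked the factors most closely over the arrays are given here, some of them members of the lists above, as a description of arrays that share group, slide and signal range. Bhlhe40 was most like Lgals3 (Pearson r = 0.975), Dnase1l3 (0.972) and Hdc (0.967). Among the genes most like Prdm1 were F2r (0.952) and Eomes (0.941), and Bcl6 was most like Arhgap11a (0.953), F2r (0.938) and Tnfsf11 (0.938). The genes nearest to Id2 were Slc39a4 (0.959), Prr13 (0.954) and Gng2 (0.945), and those nearest to Rora were Il12rb1 (0.971), Ppp3cc (0.952) and Rnf125 (0.941). Tbx21 had Plk1 (0.915), Lgals1 (0.913) and Rbm3 (0.904) as its nearest genes. Zeb2 was most like Cchcr1 (0.939), Slco4a1 (0.932) and Mlf1 (0.930). Runx3 (Cactin 0.854, H6pd 0.854, Cd8a 0.852) and Ikzf3 (Gsto1 0.771, Coro2a 0.768, Bbc3 0.744) had no gene as near. Among the 9 themselves, Prdm1, Bhlhe40, Id2, Bcl6 and Rora correlated pairwise at 0.785 to 0.935, Tbx21 reached 0.822 with Zeb2, and Runx3 and Ikzf3 stayed at 0.0374 with each other.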

How the data were processed

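Cy3-labelled RNA of 18 mice was hybridised to 1 array each. The deposited spot values are background-corrected intensity from Agilent Feature Extraction 10.5.1.1, per the file headers; the submitters' processing notes name limma. The authors' processed table of the same arrays is on a log2 scale, deposited with the series; its normalization is not given in the sources used here, and it served as an alternative. From the processed intensity, log2 values minus the array's 75th percentile were computed, outlier spots were left out and spots of a probe averaged. Probes were named through RefSeq accessions (24844 of 41174 probes). The brightest probe stood for a gene, and probes well above background on at least 3 arrays were kept, which left 31623 genes and unnamed sequences. limma 3.58.1 in R 4.3.3 fitted 1 mean per group over all 18 arrays with an intensity trend, in 12 comparisons, two-sided, with Benjamini-Hochberg adjustment over a comparison. The script was tested on simulated data. The number of arrays limits the precision, and the labels do not say more of the mice than 3 a genotype and time. The members and lists were chosen with earlier results of these data known. Named genes are the 9 factors, the 3 genes most like each, the 3 list members with the smallest p in Y136F against WT at 4 weeks, and list members called in another comparison with WT. A few genes that this rule names are not reported here. Alternatives were other background corrections, normalizations, probe rules and filters, kept outlier spots, slide, sex and replicate terms, array weights and left-out arrays. The normexp step used the median spot intensity with an offset of 50.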

Additional observations from a re-analysis of the deposited data

Results flagged for a closer look

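The effect of Y136F on Bhlhe40 differed between the times by a direct test: it was larger at 4 weeks than at 1 week by 1.88 ± 0.33 on the log2 scale (limma, adjusted p = 0.0127), with all 3 Y136F arrays above all 3 WT arrays at 4 weeks. With labelled sex as a term, which coincides with genotype at 4 weeks, it was 1.89 with an adjusted p of 0.0603. The difference between KO and Y136F for the same gene also changed between the times, by -2.32 ± 0.33 (adjusted p = 0.00234), with all 3 KO arrays below all 3 Y136F arrays at 4 weeks.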

How the results depend on the processing

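Of 584 recomputed values of differences that passed the test, 531 still passed, 53 did not and none changed sign. Of 3124 values of differences that had not passed, 46 passed and 162 changed sign without a call. Both counts include fits that left out an array of a group not compared. In those the difference cannot change, and only its error and adjusted p can. Bhlhe40 was called under every alternative run in Y136F against WT and KO against Y136F at 4 weeks and in Y136F between the times. With labelled sex as a term the number of the 9 genes called was 1 in Y136F against WT at 4 weeks, 1 in KO against Y136F at 4 weeks and 0 for the change of the Y136F effect (Bhlhe40 1.89, adjusted p = 0.0603). With slide as a fixed term it was 2 in KO against Y136F, 2 in Y136F between the times and 2 for the change of the Y136F effect, which was also 2 with slide as a random block, 2 after quantile normalization and 2 by the series matrix. The change of the KO minus Y136F difference gave 2 after quantile normalization and 2 by the series matrix. With only the arrays of the compared groups the change of the Y136F effect gave 3. Array weights gave 3 in KO against WT at 4 weeks, 6 in KO against Y136F at 4 weeks, 1 in WT between the times (Tbx21) and 3 for the change of the Y136F effect. Without both KO arrays of doubtful sex, 2 were called in KO against Y136F at 4 weeks and 3 for the change of the Y136F effect. The causes were not tested. Replicate numbers did not pair the samples (median correlation of same-numbered deviations -0.0537 over 45 pairs, from -0.617 to 0.525); with the replicate number as a block, 5 of the 9 genes were called in KO against Y136F at 4 weeks (Rora gained), 5 in Y136F between the times (Tbx21 lost, adjusted p = 0.0517), 2 for the change of the Y136F effect and 2 for the change of the KO minus Y136F difference. Leaving out each array in turn gave 3 to 5 genes in Y136F against WT at 4 weeks, 2 to 5 in KO against Y136F at 4 weeks, 3 to 7 in Y136F between the times, 1 to 3 for the change of the Y136F effect and 1 to 2 for the change of the KO minus Y136F difference; the other 7 comparisons stayed at 0. Counts over everything tested moved more, for instance 85 to 5044 against 1070 in Y136F against WT at 4 weeks, 167 to 2445 against 1063 in KO against Y136F at 4 weeks, and 586 to 8862 against 2415 in Y136F between the times. Scaling to the 75th percentile left a median difference over everything tested of -0.19 in Y136F against WT at 4 weeks, -0.06 after quantile normalization, and the 5 genes called were the same under both. Scan time and slide coincide, so the planned term for scan date was not run.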
